A study of Mus musculus with 4 samples.

Results

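The 10 genes described here encode the enzymes and the transporter through which macrophages make itaconate, take up arginine, turn it into nitric oxide or ornithine, and handle polyamines. They were taken by gene name from the deposited table of 51826 gene models, and all 10 were found once each: Acod1, Nos2, Gch1, Slc7a2, Ass1, Asl, Arg1, Arg2, Odc1 and Sat1. The RNA-seq libraries came from primary microglia, the resident macrophages of the brain, of newborn C57BL/6 mice. The brain cells grew as a mixed culture for 2 weeks before the microglia were shaken off. There were 2 LysoPS libraries, from cells given lysophosphatidylserine (LysoPS, a phospholipid with a single fatty acid chain) for 4 h, and 2 mock libraries, labelled untreated. The series title names GPR34, a receptor for LysoPS, and the comparison asks how LysoPS changed the transcripts of these cells.

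ACOD1 is a mitochondrial enzyme that draws cis-aconitate out of the citrate cycle to make itaconate, a metabolite of activated macrophages that inhibits succinate dehydrogenase. Arginine enters the cell through cationic amino acid transporters such as SLC7A2 and has competing fates. The inducible synthase NOS2, with the cofactor tetrahydrobiopterin, turns it into nitric oxide and citrulline, and ASS1 and ASL rebuild arginine from citrulline. Arginases split it into urea and ornithine, from which ODC1 makes the polyamine putrescine, while SAT1 acetylates the larger polyamines for export or breakdown. In mouse macrophages Nos2 and Arg1 are commonly used as markers of opposed activation states.

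Promoter windows were matched for 5 of the 10 genes (Acod1, Gch1, Ass1, Odc1 and Sat1) and not for Nos2, Slc7a2, Asl, Arg1 and Arg2. The windows (RefSeq, GRCm38.p6) run from 250 bases before to 50 bases after the annotated transcript start. For Acod1, Ass1 and Odc1 that start lies inside the gene span given below, and for Gch1 and Sat1 it is the first base of that span. The 3 below are shown because they place a promoter of Acod1, with the largest change of the 10 (chr14:103046762-103047061, plus strand), beside that of Gch1, which also changed (chr14:47189364-47189663, minus strand), and that of Odc1, which did not pass the test (chr12:17544623-17544922, plus strand). Each is read 5′ to 3′ on the gene's own strand, and capitals mark matches to the motifs searched.
Acod1: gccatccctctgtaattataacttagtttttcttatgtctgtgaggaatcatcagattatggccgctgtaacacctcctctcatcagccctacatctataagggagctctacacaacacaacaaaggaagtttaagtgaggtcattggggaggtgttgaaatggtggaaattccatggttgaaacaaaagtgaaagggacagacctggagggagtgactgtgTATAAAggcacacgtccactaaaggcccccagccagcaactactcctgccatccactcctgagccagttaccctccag
Gch1: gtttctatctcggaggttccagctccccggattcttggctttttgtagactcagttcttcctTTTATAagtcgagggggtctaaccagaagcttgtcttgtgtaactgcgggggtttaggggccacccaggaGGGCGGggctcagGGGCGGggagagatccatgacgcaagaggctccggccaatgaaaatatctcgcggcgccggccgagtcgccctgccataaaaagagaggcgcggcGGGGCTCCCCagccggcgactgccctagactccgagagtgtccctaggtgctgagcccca
Odc1: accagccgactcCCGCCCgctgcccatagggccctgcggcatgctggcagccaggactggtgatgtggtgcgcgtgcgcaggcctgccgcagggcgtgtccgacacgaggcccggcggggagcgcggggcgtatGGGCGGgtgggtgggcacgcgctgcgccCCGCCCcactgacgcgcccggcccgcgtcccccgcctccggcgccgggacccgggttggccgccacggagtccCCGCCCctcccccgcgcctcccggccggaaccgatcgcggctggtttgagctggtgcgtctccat
Both strands were searched for a TATA box (TATAAA), a GC box (GGGCGG), an E-box (CACGTG), a cyclic AMP response element (TGACGTCA), AP-1 (TGANTCA), C/EBP (TTNNGCAA), the antioxidant response element (TGACNNNGC), the interferon-stimulated response element (GAAA, any 2 bases, GAAA) and the NF-kappaB consensus. The Acod1 window held 2 CpG dinucleotides, fewer than the other matched windows, and 1 motif match, a TATA box from -28 to -23 relative to the start. That TATA box is upstream of the RefSeq start but inside the Acod1 gene span given below. A TATA box was present in 13.6% of all 32851 windows. The Gch1 window held 20 CpGs, a match to the NF-kappaB consensus on both strands from -10 to -1 (a match found in 8.46% of windows), 2 GC boxes, and a TATA box on the opposite strand from -188 to -183. The Odc1 window held 42 CpGs and 4 GC boxes, and 35.7% of all windows held a GC box. Ass1, with 27 CpGs, had a GC box and an E-box, and Sat1, with 21 CpGs, had 2 GC boxes. The median over all windows was 7 CpGs. No match overlapped one of another motif. A match shows only that these letters are present.

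Library totals ranged from 30001098 to 45193959 counts. Levels are given as deposited TPM (transcript abundance per length and library), which can be compared between genes, and as CPM (counts scaled by the normalized library size), on which the tests rest. Fold changes are LysoPS over mock, from edgeR's quasi-likelihood test on the counts with Benjamini-Hochberg adjustment over all 19057 tested genes, and a change was called at an adjusted p under 0.05. The sources do not state if the 2 replicates of a group were separate cultures, so p-values measure the spread between these libraries, which may be technical. In bulk RNA, a change in the number of cells of a type and a change in RNA per cell cannot be told apart. All 20 microglia and macrophage markers had counts in both groups, and the summed level of the list, led by Lyz2, was 24075 and 22105 TPM in LysoPS libraries, against 10669 and 10119 TPM in mock libraries. The microglial receptor Csf1r stood at 183 and 179 TPM in LysoPS libraries, against 161 and 151 TPM in mock libraries. The astrocyte filament gene Gfap was higher than Csf1r in every library, at 1903 and 2163 TPM in LysoPS libraries, against 4829 and 4733 TPM in mock libraries, so RNA labelled microglia also held astrocyte transcripts. The 11 astrocyte markers, all with counts, summed to 3157 and 3742 TPM in LysoPS libraries, against 7974 and 7324 TPM in mock libraries. The 8 fibroblast markers, all with counts, summed to 3712 and 4001 TPM in LysoPS libraries, against 4917 and 5100 TPM in mock libraries. Endothelial markers summed to 78.6 and 92.8 TPM in LysoPS libraries, against 181 TPM in each mock library. Cdh5 alone made up 71.1 and 84.6 TPM in LysoPS libraries, against 166 and 164 TPM in mock libraries. Oligodendrocyte lineage and neuron markers, all with counts, summed to between 201 and 268 TPM in LysoPS libraries, against between 196 and 251 TPM in mock libraries. Of 8 neutrophil markers, 4 had no count in any library, S100a9, Ly6g, Mpo and Elane, and the list summed to 7.77 and 3.82 TPM in LysoPS libraries, against 0.0834 and 0.563 TPM in mock libraries. Of 6 T cell markers, all but Trbc2 were without counts. The part of these other cells in the results below was not tested.

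Of the 10 genes, 5 rose after LysoPS, Acod1, Nos2, Gch1, Slc7a2 and Arg1, none fell, and 5 did not pass the test (Arg2, Ass1, Asl, Odc1 and Sat1). Among all tested genes, 12.8% were called higher and 12.6% lower, or 25.5% in either direction. Of all calls 50.4% were higher, against 30.5% by limma on log2(TPM + 1). At an unadjusted p under 0.05 there were 6 higher, with Arg2 added, and 0 lower, and DESeq2 also called 0 lower. Both LysoPS libraries lay above both mock libraries in CPM for 7 of the 10 genes, the 5 called and Arg2 and Sat1, against 32.5% of all tested genes. For 0 of the 10 they lay below, against 34.5% of tested genes, and 67.0% of tested genes did not overlap in either direction. All 10 passed the filter on low counts, Acod1 and Nos2 through their LysoPS libraries alone. The median log2 fold change of the 10 was 1.22, beside -0.01 over all tested genes. The rises were thus found at itaconate synthesis, nitric oxide synthesis and its cofactor, arginine uptake and arginase, and not at citrulline recycling or at the polyamine enzymes Odc1 and Sat1.

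**Figure D1:**
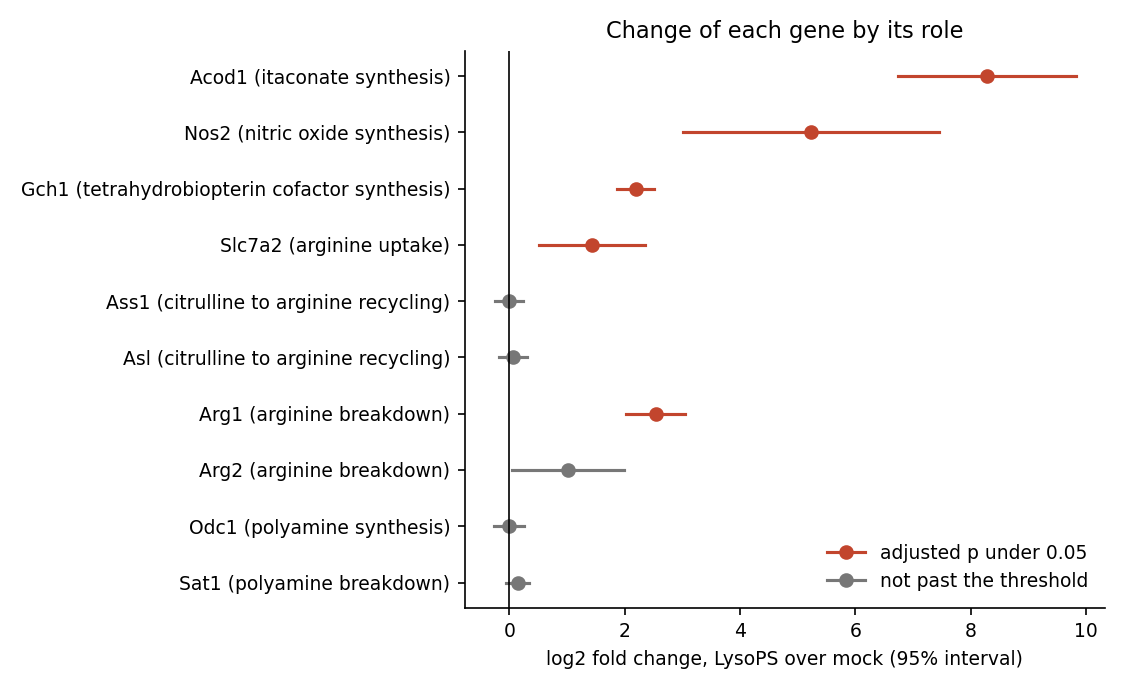
Log2 fold change of each gene, LysoPS over mock, from edgeR's quasi-likelihood fit, with its 95% interval, ordered by role. The 5 called genes (red) range from 1.43 for Slc7a2 to 8.28 for Acod1, and the intervals of Ass1, Asl, Odc1 and Sat1 (grey) include 0.

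Acod1, the itaconate synthase (ENSMUSG00000022126, chromosome 14, 103046977 to 103056573, plus strand, GRCm38), had 7355 and 9534 counts in LysoPS libraries, against 41 and 9 counts in mock libraries. In TPM these were 157 and 164 in LysoPS libraries and 1.06 and 0.174 in mock libraries. The LysoPS libraries differed little from each other, while the mock libraries differed from each other several times over at a very low level. The log2 fold change was 8.28 ± 0.60 (SE, n = 2 each; edgeR adjusted p = 0.00149), the 11th largest of all tested genes, with a 95% interval from 6.74 to 9.82. By mean TPM Acod1 ranked 900 of 51826 models in LysoPS libraries, against 17976 in mock libraries. Its size rested on the mock library used: without mock replicate 1 the log2 fold change was 10.02, and without mock replicate 2 it was 7.36.

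None of the listed genes around the itaconate branch point was called higher by the edgeR test. Of 21 genes of the citrate cycle and of itaconate degradation, all tested, 0 were higher and 1 lower, beside 12.8% and 12.6% of all tested genes. The lower gene was Suclg2, a subunit of succinyl-CoA ligase, with 58.2 ± 1.89 CPM in LysoPS libraries and 74.8 ± 0.916 CPM in mock libraries (SD, n = 2 each; log2 fold change -0.36, edgeR adjusted p = 0.0227). That call was lost without LysoPS replicate 1 and without either mock library. At an unadjusted p under 0.05 there were 2 higher genes, and DESeq2 called 2 higher. The list's median log2 fold change was -0.05.

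**Figure D2:**
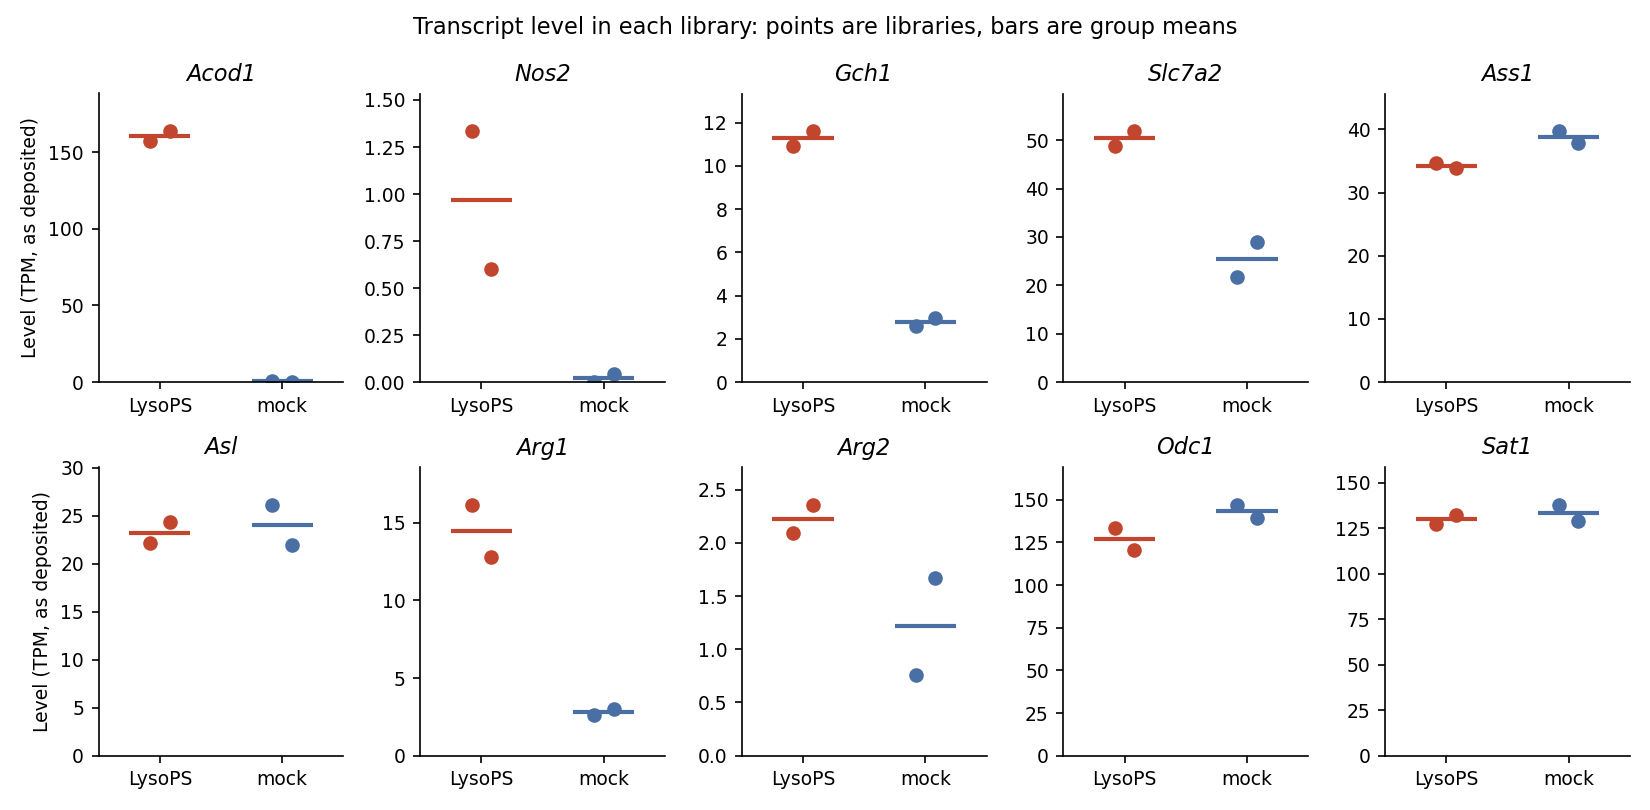
Deposited TPM of each gene in every library, on linear axes from 0 that differ between panels, with points for libraries and bars for group means. LysoPS libraries lie above mock libraries for Acod1, Nos2, Gch1, Slc7a2, Arg1 and Arg2, below them for Ass1 and Odc1, and among them for Asl and Sat1.

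Nos2, the inducible nitric oxide synthase (ENSMUSG00000020826, chromosome 11, 78920787 to 78960254, plus strand), rose to a level that was still low. It had 100 and 56 counts in LysoPS libraries, against 0 and 4 counts in mock libraries, or 1.33 and 0.601 TPM in LysoPS libraries against 0 and 0.0457 TPM in mock libraries. The groups did not overlap, and LysoPS replicate 1 held the higher of the LysoPS values. A count of 0 in mock replicate 1 allows up to 0.0974 CPM (3 counts, counting error only). The log2 fold change was 5.23 ± 0.87 (SE, n = 2 each; edgeR adjusted p = 0.0135), with a 95% interval from 3.01 to 7.45. Leaving out mock replicate 1 gave 4.47, leaving out LysoPS replicate 1 gave 4.51, and no mock count remained once mock replicate 2 was left out. Among the 10 genes Nos2 had the lowest mean TPM in LysoPS and in mock libraries.

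Gch1, which encodes GTP cyclohydrolase, the first and rate-limiting enzyme of tetrahydrobiopterin synthesis (ENSMUSG00000037580, chromosome 14, 47153895 to 47189413, minus strand), had 16.2 and 16.4 CPM in LysoPS libraries, against 3.38 and 3.75 CPM in mock libraries. Replicates were close in both groups. The log2 fold change of 2.19 ± 0.12 had the smallest p among the 10 (SE, n = 2 each; edgeR adjusted p = 0.000766), and its 95% interval ran from a fold change of 3.67 to 5.67. Gchfr, whose protein binds GTP cyclohydrolase and mediates its feedback inhibition, had 12 and 10 counts in LysoPS libraries, against 20 and 27 counts in mock libraries. Its log2 fold change of -1.13 did not pass the test (edgeR adjusted p = 0.106). The ratio of Gch1 to Gchfr in TPM was 11.2 and 16.9 in LysoPS libraries, against 1.25 and 1.40 in mock libraries. Gchfr was named after its values were seen.

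None of the other genes of nitric oxide and tetrahydrobiopterin metabolism was called higher. Of 15 tested, 0 were higher and 3 lower by edgeR, beside 12.8% and 12.6% of all tested genes. Their median log2 fold change was -0.05, and at an unadjusted p under 0.05 and by DESeq2 there were likewise 0 higher. Ddah1, which breaks down methylarginines that inhibit nitric oxide synthases, had 148 and 147 CPM in LysoPS libraries, against 214 and 204 CPM in mock libraries (log2 fold change -0.50, edgeR adjusted p = 0.00615). The neuronal synthase Nos1 stood at 4.64 ± 0.228 CPM in LysoPS libraries and 7.36 ± 0.179 CPM in mock libraries (SD, n = 2 each; log2 fold change -0.66, edgeR adjusted p = 0.0223). The endothelial synthase Nos3 had 13 and 19 counts in LysoPS libraries, against 38 and 43 counts in mock libraries (log2 fold change -1.42, edgeR adjusted p = 0.0318). Nos3 shares 294 bases with Atg9b, so reads there may have been split. The Nos3 call was lost when any library was left out, by DESeq2 and on both log2 TPM scales, that of Nos1 without either mock library and on log2(TPM + 0.1), and that of Ddah1 without mock replicate 1. Astrocyte markers, with 9 of 11 lower and a median log2 fold change of -0.68, were lower too. Of 7 tested endothelial markers 3 were lower and 4 did not pass, with a median of -0.92. Those 4 went both ways, with log2 fold changes of -0.19 for Flt1, -1.02 for Tek, 0.54 for Emcn and 2.09 for Pecam1. The part of astrocytes and endothelial cells was not tested. The later enzymes of cofactor synthesis, Pts and Spr, had log2 fold changes of -0.33 and 0.16 and did not pass (edgeR adjusted p = 0.198 and 0.472). They were named after their values were seen.

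Slc7a2, the cationic amino acid transporter that macrophages use to import arginine (ENSMUSG00000031596, chromosome 8, 40862396 to 40922308, plus strand), had 189 and 193 CPM in LysoPS libraries, against 44.1 and 97.4 CPM in mock libraries. Both LysoPS libraries lay above both mock libraries, but the mock libraries differed from each other by more than the LysoPS libraries did. The log2 fold change was 1.43 ± 0.36 (SE, n = 2 each; edgeR adjusted p = 0.0427), and the call was lost without LysoPS replicate 1 (adjusted p = 0.0860) or LysoPS replicate 2 (0.0721). Without mock replicate 1 the log2 fold change was 0.97 and without mock replicate 2 it was 2.11, and in both cases the lone mock library is assumed to vary like the LysoPS pair.

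Mock replicate 1 also stood apart from the other libraries in the transcript length behind its Slc7a2 values. Counts and FPKM together imply the transcript length used for a gene, and for Slc7a2 this was 7248 and 7306 bases in LysoPS libraries, against 4327 and 7374 bases in mock replicates 1 and 2. The annotation holds Slc7a2 transcripts of 7910, 7626, 3681, 3677 and 519 bases. In TPM, which divides by the length used, Slc7a2 stood at 48.9 and 51.9 in LysoPS libraries, against 21.7 and 29.0 in mock libraries, a ratio of means of 1.98 in place of 2.70 in CPM. On log2(TPM + 1) the change was 0.97 and passed limma's test (adjusted p = 0.0154). Of the 10 genes Slc7a2 was the one whose implied length varied by over 1.2 times between libraries (1.70 times, against at most 1.17 for the others), and 14.4% of models with at least 20 counts in each library did so. Whether its transcript forms changed was not tested. A lincRNA on the opposite strand, Gm26584, overlaps Slc7a2 and held at most 12 counts in a library.

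**Figure D3:**
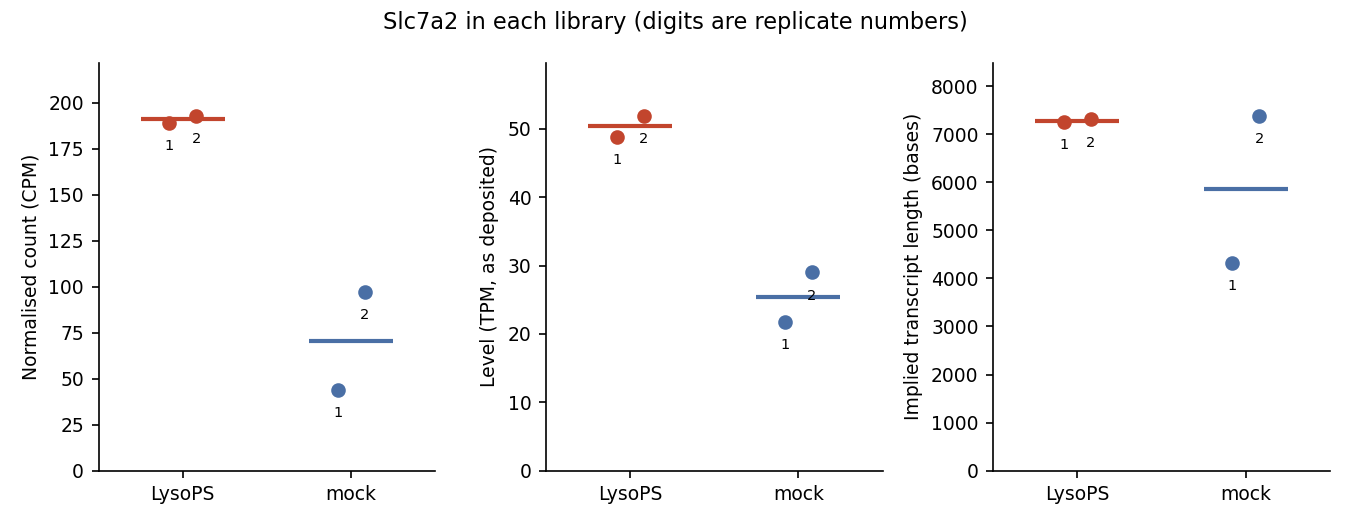
Slc7a2 in each library as CPM, as deposited TPM and as the transcript length implied by counts and FPKM, with bars at group means and digits for replicate numbers. Mock replicate 1 is low in CPM (44.1) and in implied length (4327 bases), while its TPM (21.7) is closer to that of mock replicate 2 (29.0).

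A further arginine importer, Slc7a1, also rose, and the genes listed with it for arginine transport and use went both ways. Of 24 genes for arginine transport and use, 19 were tested, of which 3 rose, 4 fell and 12 did not pass, with a median log2 fold change of -0.13. Lower calls numbered 2 without mock replicate 1, and 6 by limma on log2(TPM + 1). Slc7a1, the widely expressed cationic amino acid transporter, had 108 and 111 CPM in LysoPS libraries, against 52.5 and 52.3 CPM in mock libraries (log2 fold change 1.06, edgeR adjusted p = 0.00107). In TPM the level of Slc7a2 was 1.69 and 1.65 times that of Slc7a1 in LysoPS libraries, against 1.34 and 1.75 times in mock libraries, so this ratio overlapped between groups. Slc7a7, the light chain of an exchanger that moves arginine out for neutral amino acids, stood at 50.1 ± 3.16 CPM in LysoPS libraries and 16.7 ± 2.76 CPM in mock libraries (SD, n = 2 each; log2 fold change 1.58, edgeR adjusted p = 0.00236). Gatm, which uses arginine for the first step of creatine synthesis, stood at 206 ± 18.2 CPM in LysoPS libraries and 95.4 ± 0.504 CPM in mock libraries (log2 fold change 1.11, edgeR adjusted p = 0.00160).

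The 4 genes that fell were Padi2, Prodh, Aldh4a1 and Gamt, of which the last 3 were named after their values were seen. Padi2, a deiminase that turns arginine residues in proteins into citrulline, had 46.5 and 59.5 CPM in LysoPS libraries, against 170 and 165 CPM in mock libraries (log2 fold change -1.66, edgeR adjusted p = 0.00183). Gamt, the second enzyme of creatine synthesis, fell by 0.70 on the log2 scale while Gatm rose. Prodh and Aldh4a1, which oxidise proline to glutamate, fell by 0.97 and 0.81. The implied length of Prodh varied by 1.37 times between libraries. Beside these, the astrocyte list had a median log2 fold change of -0.68, and the part of astrocytes was not tested.

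Ass1 and Asl, the citrulline to arginine enzymes, did not pass the test. Ass1, argininosuccinate synthase (ENSMUSG00000076441, chromosome 2, 31470207 to 31520672, plus strand), had 30.5 and 28.3 CPM in LysoPS libraries, against 30.8 and 28.3 CPM in mock libraries. The groups overlapped, and the log2 fold change of -0.01 ± 0.09 (SE, n = 2 each; edgeR adjusted p = 0.954) had a 95% interval from a fold change of 0.843 to 1.17. Asl, argininosuccinate lyase (ENSMUSG00000025533, chromosome 5, 130011258 to 130029247, minus strand), had 23.5 and 22.4 CPM in LysoPS libraries, against 22.9 and 21.2 CPM in mock libraries. Its fold change interval ran from 0.883 to 1.23 (edgeR adjusted p = 0.675). Its log2 fold change was 0.06 on counts and -0.04 on log2(TPM + 1). In deposited TPM the Ass1 libraries did not overlap, with 34.6 and 33.9 in LysoPS libraries against 39.7 and 37.9 in mock libraries. TPM carries no scaling between libraries, and on that scale the median log2 ratio of group means over tested genes with TPM above 0 in every library was -0.18, the same as the -0.18 of Ass1. A processed pseudogene of Ass1, Gm5424, aligned at 99.5% identity over 1240 bases and held between 0.566% and 1.96% of the Ass1 count.

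The arginases differed in level and in the outcome of the test. Arg1, the cytosolic arginase (ENSMUSG00000019987, chromosome 10, 24915221 to 24927484, minus strand), had 417 and 410 counts in LysoPS libraries, against 54 and 86 counts in mock libraries. In CPM it stood at 12.5 and 9.38 in LysoPS libraries, against 1.75 and 1.99 in mock libraries. The LysoPS libraries differed from each other by less than they differed from mock. The log2 fold change was 2.54 ± 0.20 (SE, n = 2 each; edgeR adjusted p = 0.00186), with a 95% interval from a fold change of 4.06 to 8.29, and it kept its call under every alternative tried. On the log2 scale the interval of Arg1 ended at 3.05 and that of Nos2 began at 3.01, and the difference between the changes of both genes was not tested. The Nos2 level was 0.0825 and 0.0469 times that of Arg1 in LysoPS libraries, against 0 and 0.0152 times in mock libraries.

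Arg2, the mitochondrial arginase (ENSMUSG00000021125, chromosome 12, 79130777 to 79156301, plus strand), had 54 and 75 counts in LysoPS libraries, against 16 and 47 counts in mock libraries. In CPM these were 1.61 and 1.72 in LysoPS libraries, against 0.519 and 1.09 in mock libraries. LysoPS libraries lay above mock libraries, with the mock libraries apart from each other. The log2 fold change of 1.02 ± 0.38 did not pass (SE, n = 2 each; edgeR adjusted p = 0.117), and its unadjusted 95% interval ran from a fold change of 1.03 to 3.99. Without mock replicate 1 the log2 fold change was 0.61 and without mock replicate 2 it was 1.67. Arg2 overlaps Vti1b, a gene on the opposite strand, over 285 bases, and Vti1b held 2131 and 2862 counts in LysoPS libraries, against 1736 and 2015 counts in mock libraries. The use of strand in counting was not given, so reads of the shared stretch may not be told apart. The ratio of Arg1 to Arg2 in TPM was 7.72 and 5.43 in LysoPS libraries, against 3.40 and 1.79 in mock libraries.

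Odc1 and Sat1, the enzymes at the entry and at the breakdown side of the polyamine pathway, were among the most abundant of the 10 genes and did not pass the test. Odc1, ornithine decarboxylase (ENSMUSG00000011179, chromosome 12, 17544794 to 17551505, plus strand), had 150.0 and 128 CPM in LysoPS libraries, against 146 and 133 CPM in mock libraries. The groups overlapped, with a log2 fold change of -0.01 ± 0.10 (SE, n = 2 each; edgeR adjusted p = 0.973) and a 95% interval from a fold change of 0.832 to 1.19. In TPM, LysoPS libraries (134 and 121) lay below mock libraries (147 and 139.6), a log2 ratio of -0.17 beside the median of -0.18 on that scale. Transcripts of 18 other genes aligned to Odc1 at 90% identity or more over at least 200 bases, and 11 of them held counts. Most of these counts were in AW146154, a separate protein-coding gene aligned over 921 bases at 92.1% identity, and in the pseudogene Gm17709. Together the counts of the 18 genes came to 9.76% and 10.7% of the Odc1 count in LysoPS libraries, against 12.2% and 12.2% in mock libraries. AW146154 alone held 300 and 370 counts in LysoPS libraries, against 371 and 460 counts in mock libraries. Sat1, spermidine/spermine acetyltransferase (ENSMUSG00000025283, chromosome X, 155213132 to 155216449, minus strand), had 82.4 and 81.7 CPM in LysoPS libraries, against 77.6 and 70.9 CPM in mock libraries. Its log2 fold change of 0.14 ± 0.08 did not pass (SE, n = 2 each; edgeR adjusted p = 0.241), with a 95% interval from a fold change of 0.961 to 1.27, and on log2(TPM + 1) it was -0.04. The ratio of Odc1 to Sat1 in TPM lay between 0.912 and 1.05 in LysoPS libraries, against 1.07 and 1.08 in mock libraries.

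Further along the polyamine pathway several genes rose. Of 19 gene models for 18 polyamine genes, all tested, 8 were higher, 1 lower and 10 did not pass, with a median log2 fold change of 0.44. Among all tested genes 12.8% were called higher and 12.6% lower. Sms, spermine synthase, had 60.3 and 59.5 CPM in LysoPS libraries, against 35.8 and 33.0 CPM in mock libraries (log2 fold change 0.80, edgeR adjusted p = 0.00345). Atp13a2, a lysosomal polyamine exporter, stood at 132 ± 6.14 CPM in LysoPS libraries and 83.5 ± 5.51 CPM in mock libraries (SD, n = 2 each; log2 fold change 0.67, edgeR adjusted p = 0.00597). Eif5a, the translation factor that carries the spermidine-derived residue hypusine, stood at 482 ± 34.3 CPM in LysoPS libraries and 320.2 ± 19.9 CPM in mock libraries (log2 fold change 0.59, edgeR adjusted p = 0.00802). Amd1, adenosylmethionine decarboxylase, which supplies the aminopropyl groups, had a log2 fold change of 0.49 (edgeR adjusted p = 0.0102). It is 99.6% identical to Amd2 over 3202 aligned bases, so reads of the pair may have been split. The Amd1 call was lost without either mock library and on both log2 TPM scales. Srm (0.62), Mtap (0.63), Amd2 (0.49) and Dhps (0.37) also rose on the log2 scale, and the antizyme Oaz2 fell by 0.29. These 5 were named after their values were seen, and the implied length of Oaz2 varied by 1.32 times. The Oaz2 call was lost with DESeq2 size factors, with no filter, without LysoPS replicate 1 and without either mock library. The count of 8 higher genes dropped to 3 without mock replicate 2 and was 5 by limma on log2(TPM + 1). Of 21 models of microglia and macrophage markers 14 were higher, with a median log2 fold change of 0.54, and their part was not tested.

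**Figure D4:**
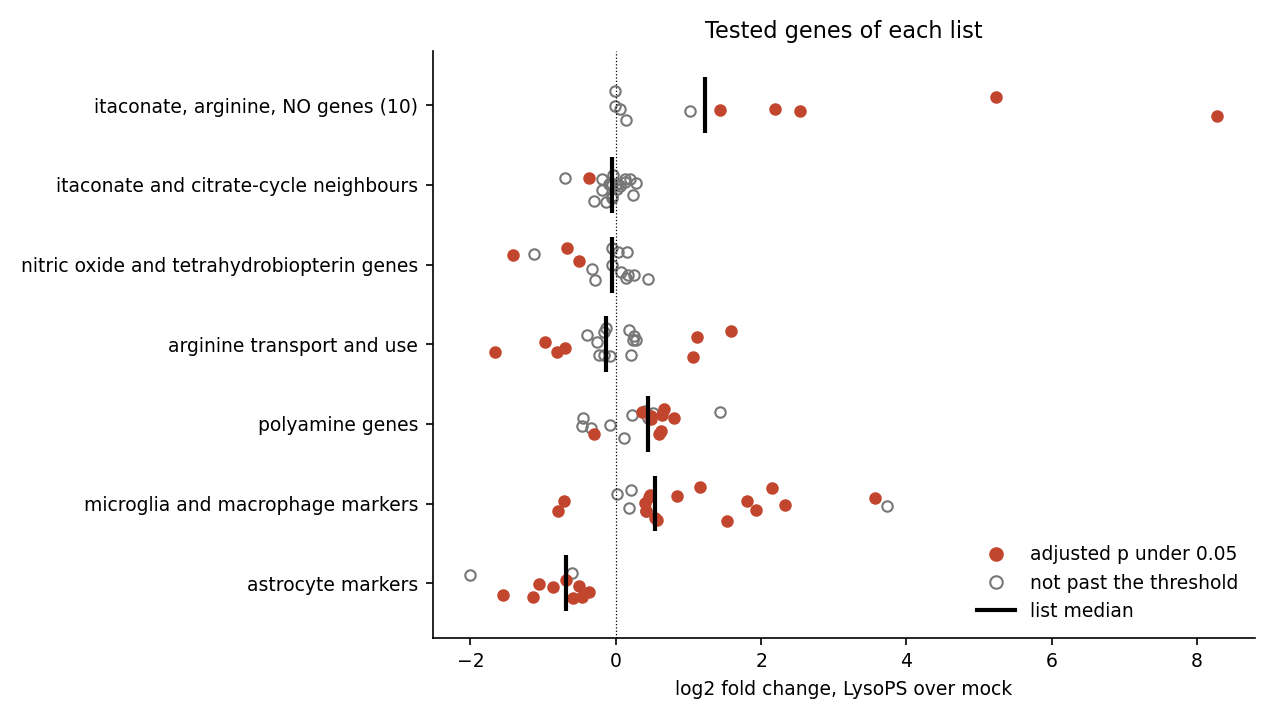
Log2 fold change of every tested gene in each list, LysoPS over mock, with filled points for genes called at an adjusted p under 0.05 and a bar at each list's median. The 10 genes spread from about 0 to 8.28, while the medians are -0.05, -0.05, -0.13 and 0.44 for the 4 other pathway lists, 0.54 for microglia and macrophage markers and -0.68 for astrocyte markers.

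Ordered by mean TPM, the 10 genes in LysoPS libraries ran from Acod1 at 160.4 ± 4.71 through Sat1 at 130.0 ± 3.62, Odc1 at 127 ± 9.08, Slc7a2 at 50.4 ± 2.13, Ass1 at 34.3 ± 0.507, Asl at 23.2 ± 1.60, Arg1 at 14.5 ± 2.38, Gch1 at 11.3 ± 0.472 and Arg2 at 2.23 ± 0.187 to Nos2 at 0.967 ± 0.519 (SD, n = 2). Sat1 and Odc1 overlapped, and no other neighbours in that order did. In mock libraries the order was Odc1 at 143 ± 5.38, Sat1 at 133 ± 6.39, Ass1 at 38.8 ± 1.28, Slc7a2 at 25.4 ± 5.13, Asl at 24.0 ± 2.98, Arg1 at 2.80 ± 0.288, Gch1 at 2.77 ± 0.255, Arg2 at 1.22 ± 0.645, Acod1 at 0.618 ± 0.627 and Nos2 at 0.0228 ± 0.0323 (SD, n = 2). There the pairs Slc7a2 and Asl, Arg1 and Gch1, and Arg2 and Acod1 overlapped. Acod1 thus stood first among the 10 in LysoPS libraries and next to last in mock libraries. Summed over the 10 genes, the level was 554 and 555 TPM in LysoPS libraries, against 379.8 and 365 TPM in mock libraries.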

How the data were processed

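Poly-A selected RNA was sequenced as paired ends, per the labels' protocols. The treatment text speaks of 1 treated replicate, while 2 samples are labelled LysoPS. The sample labels were followed. Per the submitters' processing notes, FastQC 0.11.2, Trimmomatic 0.36, HISAT2 and StringTie were used with GRCm38. No source used here names the settings, annotation release, counting program or strand use. The deposited counts are whole numbers without normalization. The deposited TPM and FPKM values are the authors' own, and FPKM served only to derive implied lengths, calibrated on 1206 genes with a single transcript in GENCODE M21.

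The tests used R 4.3.3 with edgeR 4.0.16 (limma 3.58.1 for some alternatives). Low genes were removed by filterByExpr with its defaults, libraries were scaled by TMM, and the two-sided quasi-likelihood test had 2 residual degrees of freedom. Standard errors were derived from the F statistic, and intervals used its total degrees of freedom. Replicates differed beyond sampling noise (chi-square per degree of freedom 25.3 in LysoPS, 16.6 in mock). On simulated counts the fit recovered 12 of 67 genes changed 1.5-fold, 39 of 67 changed 2-fold and 61 of 66 changed 4-fold. Only 116 of 18647 genes were called there, against 4854 of 19057 in the data. With fewer calls the adjusted threshold is stricter, so these shares do not carry over to the data. Small changes can go uncalled, and how often they did in these data was not tested. The alternatives were DESeq2 1.42.0 and its size factors, other filters, limma-voom, limma on log2(TPM + 1) and log2(TPM + 0.1), a replicate block, and each library left out. The members and lists were chosen with earlier results of these data known, and the TATA and GC box were added after the promoter sequences were seen. From each further list up to 4 called genes with the smallest p and at least 1 CPM in the higher group were named, besides those marked as named later.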

Additional observations from a re-analysis of the deposited data

How the results depend on the processing

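The number of the 10 genes called higher stayed between 4 and 5 under all 12 alternatives and none was called lower. It was 4 with a filter of 5 CPM in 2 libraries, which left Nos2 and Arg2 untested, and without either LysoPS library, where Slc7a2 lost its call. A group left with 1 library is assumed to vary like the other group. Nos2 has no fold change without mock replicate 2, where no mock count remained. The number called in that setting still includes Nos2, so it does not show that the Nos2 call held there. The log2 change of Nos2 was 0.92 on log2(TPM + 1) and 3.05 on log2(TPM + 0.1), scales that understate changes of low genes. Acod1 was 6.70 on log2(TPM + 1). Over all genes, 2447 higher and 2407 lower calls (50.4% higher) became 1353 and 3088 (30.5% higher) by limma on log2(TPM + 1), and 1330 and 3018 on log2(TPM + 0.1), scales on which the median of all genes moved by -0.14 and -0.18. Leaving out 1 library gave between 1161 and 2768 higher and between 986 and 2588 lower. Of these, mock replicate 1 left 1237 higher and 986 lower, and mock replicate 2 left 1161 and 1004. The other pathway genes, with 11 higher and 9 lower, gave 15 lower on log2(TPM + 1) and 14 on log2(TPM + 0.1), and between 6 and 13 higher and between 2 and 8 lower with 1 library left out. There were 6 higher and 5 lower without mock replicate 2, and 9 and 2 without mock replicate 1.

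Of the 5 genes that did not pass, Ass1, Asl, Odc1 and Sat1 changed sign near 0 under some alternatives, and Arg2 did not. Ass1 was 0.0056 with DESeq2 size factors and 0.0058 by DESeq2, and between -0.068 and 0.051 with 1 library left out. Odc1 was 0.0089 in both DESeq2 settings and between -0.13 and 0.11 with 1 library left out. Asl was -0.043 on log2(TPM + 1) and -0.044 on log2(TPM + 0.1), and Sat1 was -0.037 on both. The cause was not tested. Replicate numbers are shared between groups, but nothing says that they pair cultures, and same-numbered libraries deviated together only weakly (r = 0.11 across genes). With the number as a block, 2797 genes were higher and 2636 lower, the same 5 of the 10 genes were called, and Nos3 was not (adjusted p = 0.0526). At this depth Nos2 and Acod1, with few counts in mock libraries, have the widest intervals of the 10.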
